A study of Mus musculus with 12 samples.

Results

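The data described here are those of the autophagosome machinery and its cargo receptors in HT22 cells, a mouse hippocampal line, exposed to mesaconitine (MA), an alkaloid of Aconitum. The set was chosen by gene name, with earlier results of these data known. It holds 48 of the 25239 genes in the expression table and 17 of the 2643 N6-methyladenosine (m6A) peaks. The labels describe wild-type HT22 cells with hippocampus as the tissue. MeRIP-seq gave 12 libraries in 4 groups of 3: input RNA and anti-m6A immunoprecipitate (IP) after 72 h of MA at 800 μM, and the same pair from untreated control cells. Nothing in the labels says whether the 3 libraries of a group came from separate cultures. The deposited tables hold no value of a single library. Read counts of a peak are pooled over the 3 libraries of a group and expression is one base mean per gene, so the spread between replicates could not be measured and no test of MA against control was made.

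In macroautophagy a cup-shaped membrane grows around cargo, closes into the autophagosome and fuses with the lysosome. A kinase complex starts the process, a lipid kinase complex marks the membrane with phosphatidylinositol 3-phosphate, lipid transfer and scramblase proteins feed its growth, and a ubiquitin-like conjugation system couples the Atg8 proteins (LC3 and GABARAP) to it. Cargo receptors tie the load to the Atg8 proteins, and SNARE proteins carry out fusion. In mRNA, m6A is deposited within a short consensus, and MeRIP-seq reads it as IP reads in excess of input reads over a stretch of transcript.

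As a check of the cell label, 4 of 10 neuronal markers (Map2, Nefl, Nefm and Snap25) were listed at a base mean of 0 and Rbfox3 and Syp stood at 1.15 and 4.7. The other 4 were expressed, Tubb3 at 473, Eno2 at 534, Syn1 at 710 and Dlg4 at 4073. Of the 4 fibroblast markers, Col1a1, Col1a2 and Col3a1 stood at 100160, 129498 and 134804, at percentiles 99.3 to 99.5 of genes per length, and Pdgfrb at 1573, percentile 57. Markers of astrocytes, oligodendrocytes and microglia ran from 0 to 115. Several defining neuronal transcripts of the labelled cell type were thus at or near 0 in this table, and their part in the results was not tested. The labels name a single cell line, and bulk RNA does not show how expression was spread over its cells. Over all 2643 peaks the control pools held 288659 input and 267002 IP reads, and the MA pools 214778 and 359889.

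Of the 48 genes, 10 carried a peak (20.8%), against 1814 (17.5%) of the 10346 genes with a base mean at least that of the lowest member. They were Ulk1, Ulk2, C9orf72 and Smcr8 of the initiation step, Atg14 of the lipid kinase, Atg2a and Tmem41b of membrane growth, and Atg4b, Atg16l1 and Map1lc3b of conjugation. None of the 5 cargo receptors and none of the 4 fusion genes had a peak in the deposited list. The paper reports many more peaks than this list holds, so a gene without a listed peak may still carry m6A. Most of the 10 genes had 1 peak, while Ulk1, C9orf72 and Atg14 had 2 and Atg2a had 5, the most on any gene in the deposited list, where 3 genes had 5. The median transcript length was 4006 bases for members with a peak and 3271 bases for those without, and the median base mean was 1714 and 1802. By the midpoint, 11 peaks lay in coding sequence (CDS), 6 in the 3′ untranslated region (3′UTR) and 0 in the 5′UTR, and 8 spanned an exon junction. Over all placed peaks on coding transcripts, 57.6% lay in CDS and 33.3% in 3′UTR.

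The sequences below are stretches of at most 29 bases from the peaks whose IP to input ratio was more than 1.5-fold from the median peak in its change between MA and control (Atg2a peak 5 on few reads), together with the other peak of C9orf72 and the deepest peak, that of Map1lc3b. They were read 5′ to 3′ on the transcribed strand from GENCODE M21 transcripts (GRCm38, the mm10 build), and coordinates are those of the whole peak. Each stretch is centred on the motif and can run past the end of a peak, by 3 bases at Atg14 peak 1 and by 8 at Atg2a peak 1. Capitals mark the match to the m6A consensus RRACH nearest the centre of the peak, where the first and second letters are A or G, then A and C, and the last is A, C or T. A stretch in lower case throughout holds the central bases of a peak with no match.
C9orf72 peak 1, CDS, exon 8 of 10, chr4:35197071-35197120, minus strand: ccaccgtgtcatGAACAtatttataatca
C9orf72 peak 2, 3′UTR, exon 10 of 10, chr4:35192210-35192259, minus strand: gtgacctgtgacaagttttttgttggttt
Smcr8, 3′UTR, exon 2 of 2, chr11:60788086-60788135, plus strand: gaggagtgtactttttaagatattaattt
Atg14 peak 1, CDS, exons 6 to 7 of 11, chr14:47549148-47551321, minus strand: tcgacgaagtgaAGACTtctgggagagac
Atg14 peak 2, CDS, exons 9 to 11 of 11, chr14:47542943-47545803, minus strand: catggaatttgtGGACCctggagttgctg
Atg2a peak 1, CDS, exons 1 to 2 of 40, chr19:6241943-6244427, plus strand: atattcacctggAAACCtggtctgtgaac
Atg2a peak 3, CDS, exon 16 of 40, chr19:6251270-6251319, plus strand: ctgaagagatgaGGACAttccagagccgg
Atg2a peak 4, CDS, exons 18 to 19 of 40, chr19:6251833-6252495, plus strand: aggctaaggatgAGACAgggaagcggctg
Atg2a peak 5, 3′UTR, exon 40 of 40, chr19:6262140-6262264, plus strand: ttttggacccatGGACCccactcagccaa
Tmem41b, 3′UTR, exon 7 of 7, chr7:109974312-109974361, minus strand: aagtaaaataagGAACAgtgaagataaaa
Atg4b, 3′UTR, exon 13 of 13, chr1:93788838-93788912, plus strand: agtgaagagttcAGACCtccttggcactc
Map1lc3b, CDS, exons 2 to 3 of 4, chr8:121593638-121595997, plus strand: aaggggcaggcgggtgattatagag

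RRACH was found in 14 of the 17 peaks (82.4%), searched on the transcribed strand only, and in 63.6% of all 2583 placed peaks. Longer peaks hold a match more often, so peaks of 50 exonic bases were also compared with each other. Among these, 5 of 7 on the autophagosome genes and 49.6% of all 1011 held a match. The 3 peaks without one were C9orf72 peak 2, Smcr8 and Map1lc3b. The wider form DRACH, whose first letter may also be T, was found in 15 of the 17 peaks and in 73.6% of all placed peaks. C9orf72 peak 2 held 2 matches to it, and Smcr8 and Map1lc3b held 0. The narrower form GGACT, contained in RRACH, was found in 0 of the 17 peaks and in 8.9% of all placed peaks. A match describes the letters only and does not locate a methylated base.

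For each peak the IP to input ratio was taken in both groups, and its change from control to MA was expressed relative to the median of all tested peaks, that is, those with at least 10 reads in each of the 4 groups. This centring was needed because the raw ratio of the median peak went from 0.955 in control to 1.78 in MA. Library totals are not in the files, so a change common to all peaks and a difference in depth cannot be told apart. In what follows, "higher" and "lower" are relative to the median peak, the threshold is 1.5-fold, and brackets give a 95% interval that covers counting error only. Raw ratios within a group are also not corrected for depth, so a ratio above 1 is not by itself enrichment.

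Of the 17 peaks, 16 passed the read minimum, and 3 of these were higher in MA by more than 1.5-fold (18.8%, against 26.5% of all 2467 tested peaks) while 6 were lower (37.5%, against 24.9%). The other 7 lay within the threshold. Without the centring, 8 of the 16 were higher and 1 lower (63.4% and 7.46% of all tested peaks), the lower one being Atg2a peak 3, so 5 of the 6 lower calls rest on the comparison with the median peak. The 3 higher peaks were C9orf72 peak 1, Atg2a peak 4 and Tmem41b, and the 6 lower ones were Smcr8, both Atg14 peaks, Atg2a peaks 1 and 3, and Atg4b. The median change of the 16 peaks was -0.39 on the log2 scale, against 0.00 over all tested peaks, whose quartiles were -0.58 and 0.62, and 12 of the 16 lay below the median peak. With so few peaks these shares are a description, and no difference from the other genes was tested. By counting error alone, the interval lay above 0 for 3 of the 16 peaks, below 0 for 6 and included 0 for 7, while over all tested peaks it lay above 0 for 22.2% and below for 22.6%. All 3 higher peaks had a control ratio below that of the median peak, as did 96.2% of all higher peaks, and all 6 lower peaks had a control ratio above it, as did 100% of all lower peaks. The change is computed from the same control reads, so both facts share those reads.

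**Figure D1:**
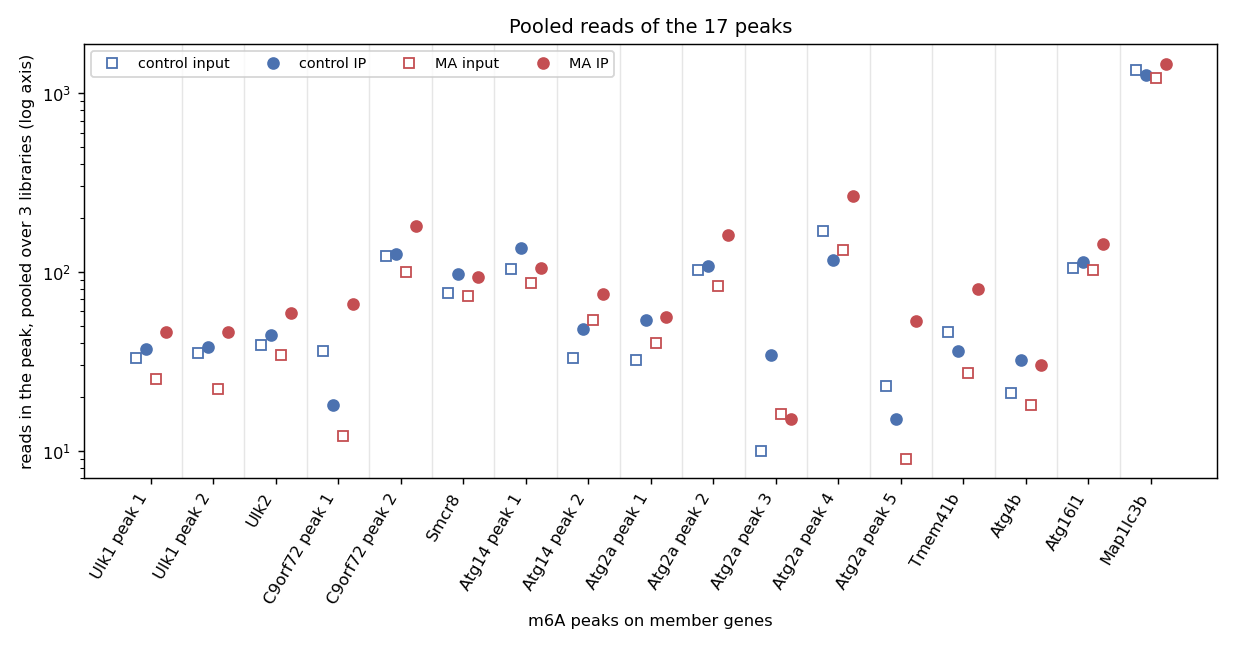
Reads in each of the 17 peaks, pooled over the 3 libraries of a group, on a log axis (squares, input; circles, IP; blue, control; red, MA). Counts ran from 9 to 1455, and Map1lc3b stood far above the others; in C9orf72 peak 1 the wide gap between IP and input is in MA, whereas in Atg2a peak 3 it is in control.

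In the initiation step, which starts autophagosome formation, 4 of 7 genes carried 6 peaks: 1 was higher, 1 lower and 4 within the threshold. Ulk1 and Ulk2 encode the serine/threonine kinases of the complex. Ulk1 peak 1, in CDS over exons 12 to 13 of 28, held 33 input and 37 IP reads in control, and 25 and 46 in MA. Ulk1 peak 2, in the 3′UTR 774 bases after the stop codon, held 35, 38, 22 and 46 reads in the same order. Their changes were -0.17 [-1.14, 0.79] and 0.05 [-0.93, 1.03], so neither differed from the median peak beyond counting error. The Ulk2 peak, in CDS over exons 24 to 25 of 27, held 39, 44, 34 and 59 reads, a change of -0.26 [-1.13, 0.60].

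C9orf72 and SMCR8 proteins form one complex that acts with the ULK1 complex and in membrane traffic. C9orf72 peak 1 held 36 input and 18 IP reads in control, and 12 and 66 in MA. Its raw IP to input ratio was 0.5 in control and 5.5 in MA, so the sides of the ratio were reversed between the groups. Relative to the median peak it was 5.71-fold higher in MA, a log2 change of 2.51 [1.33, 3.70], at percentile 99.2 of all tested peaks. Both sides moved: relative to their median peaks, IP reads changed by 1.39 [0.64, 2.13] and input reads by -1.10 [-2.03, -0.18]. C9orf72 peak 2, in the 3′UTR 950 bases after the stop codon, was deeper, with 122, 126, 100 and 181 reads in the same order. Its change was -0.07 [-0.57, 0.43], at the level of the median peak. The difference between the 2 peaks of one transcript does not depend on library depth or on the centring, and it was 2.59 [1.30, 3.88] on the log2 scale. Both sides entered it: peak 1 differed from peak 2 by 1.32 [0.51, 2.14] in IP reads and by -1.26 [-2.26, -0.26] in input reads. Summed over both peaks, C9orf72 held 158, 144, 112 and 247 reads and changed by 0.39 [-0.07, 0.85], so the summed gene hid the difference at peak 1. The Smcr8 peak, in the last of its 2 exons and 3906 bases after the stop codon, went the other way, with 76, 97, 73 and 93 reads. It was 1.84-fold lower relative to the median peak, a change of -0.88 [-1.50, -0.26], while its raw ratio was about the same in both groups, at 1.28 and 1.27.

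The lipid kinase step, the class III phosphatidylinositol 3-kinase and its regulators, had peaks on 1 of 8 genes. Atg14 directs this kinase to the site where autophagosomes form. Atg14 peak 1 held 103 input and 136 IP reads in control, and 86 and 105 in MA. Peak 2 held 33, 48, 54 and 75 reads in the same order. Both were lower relative to the median peak, by -0.99 [-1.54, -0.44] and -0.94 [-1.75, -0.13], and they differed from each other by only -0.05 [-1.03, 0.93]. The reads behind these like changes were not alike. At peak 1 the IP reads were lower, at -0.83 [-1.20, -0.47], and input was 0.18 from the median peak. At peak 2 the IP reads were close to the median peak, at 0.18 [-0.34, 0.70], and the input reads were higher, at 1.15 [0.52, 1.77]. Summed over both peaks, Atg14 changed by -0.95 [-1.40, -0.50] in the ratio and by 0.49 [0.15, 0.82] in input. The other 7 members of the step (Becn1, Pik3c3, Pik3r4, Uvrag, Rubcn, Ambra1 and Nrbf2) had no listed peak.

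**Figure D2:**
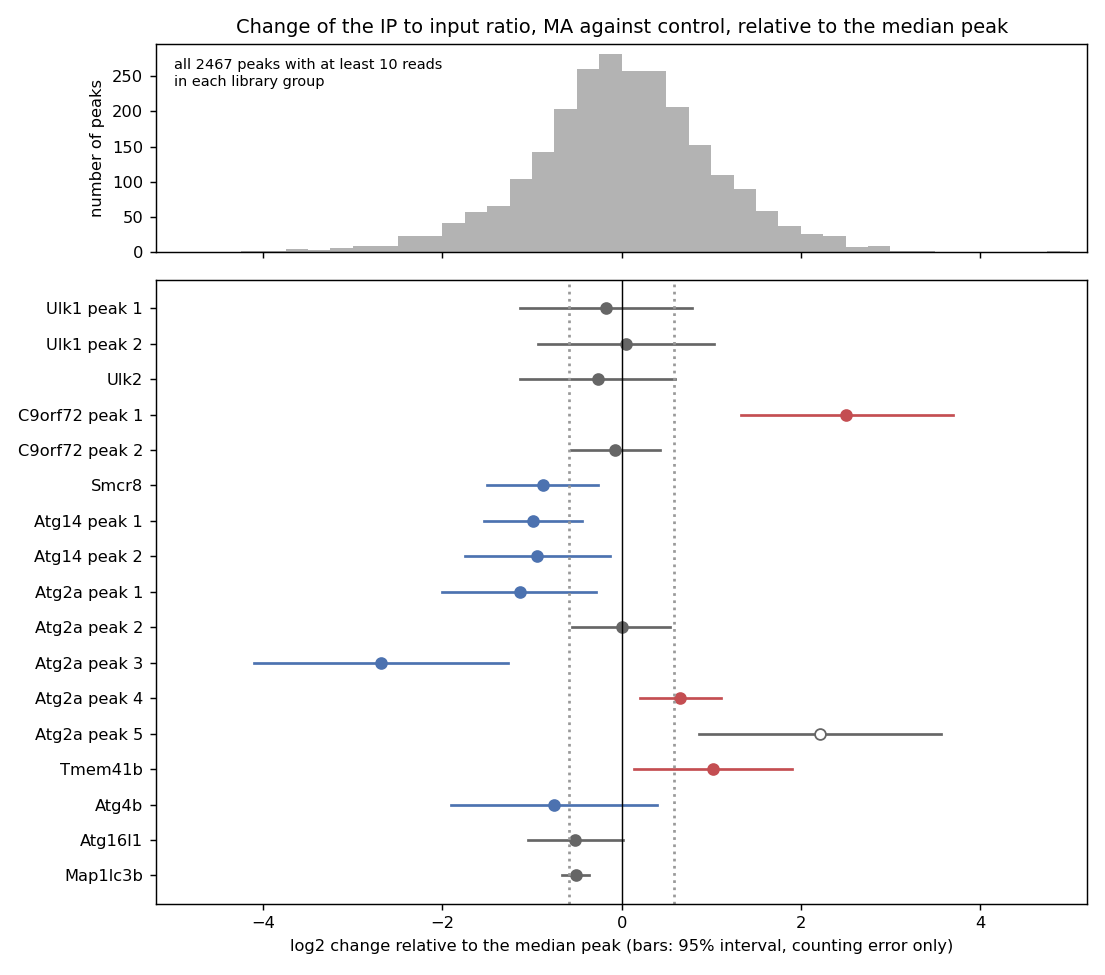
Change of the IP to input ratio from control to MA on the log2 scale, relative to the median peak. Top, all 2467 tested peaks; bottom, the 17 peaks of the autophagosome genes with 95% intervals for counting error only (red, more than 1.5-fold higher; blue, more than 1.5-fold lower; grey, within; open circle, under the read minimum; dotted lines, 1.5-fold). C9orf72 peak 1 lies farthest to the right among tested member peaks and Atg2a peak 3 farthest to the left.

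In the ATG2-ATG9 step, which supplies lipid to the growing membrane, 2 of 9 genes carried 6 peaks, of which 5 were tested: 2 were higher, 2 lower and 1 within the threshold. ATG2A is a bridge-like protein that moves lipid from the endoplasmic reticulum into the growing membrane, and its transcript held peaks that went in opposite directions. Peak 1, near the start of the CDS, held 32 input and 54 IP reads in control, and 40 and 56 in MA and was lower, at -1.14 [-2.00, -0.29]. Peak 2, in exon 5, held 102, 107, 83 and 160 reads and stood at the median peak, with a change of 0.00 [-0.55, 0.54]. Peak 3, in exon 16, held 10, 34, 16 and 15 reads and was 6.43-fold lower, at -2.69 [-4.10, -1.27] and percentile 0.932 of all tested peaks.

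At Atg2a peak 3 the raw IP to input ratio was 3.4 in control and 0.938 in MA, and its 10 control input reads were exactly the minimum. Peak 4, the next peak downstream, lay in exons 18 to 19 and was the deepest of the 5, with 169, 116, 133 and 265 reads. It was 1.57-fold higher, a change of 0.65 [0.20, 1.11]. Peak 5, in the 3′UTR 368 bases after the stop codon, held 23, 15, 9 and 53 reads and was left out of the counts because 9 reads are under the minimum. Its value was 2.22 [0.86, 3.57], the second highest among the 17 peaks after C9orf72 peak 1.

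Between peaks of Atg2a the depth of the libraries cancels, as it does for C9orf72. The change at peak 4 exceeded that at peak 3 by 3.34 [1.86, 4.82] and that at peak 1 by 1.80 [0.83, 2.77]. Peak 2 also stood above peak 3, by 2.68 [1.17, 4.19], and above peak 1, by 1.14 [0.12, 2.15]. Intervals of the differences between peaks 1 and 3 and between peaks 2 and 4 included 0. Input reads stood above the median peak at peak 1, by 0.76 [0.09, 1.43], and at peak 3, by 1.10 [-0.02, 2.21], and close to it at peak 4, by 0.10 [-0.23, 0.43]. Summed over all 5 peaks, Atg2a held 336, 326, 281 and 549 reads and changed by 0.13 [-0.17, 0.43], a value that shows none of the movement of the single peaks. The paper reports raised m6A on Atg2a from its own comparison, which was not used here.

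**Figure D3:**
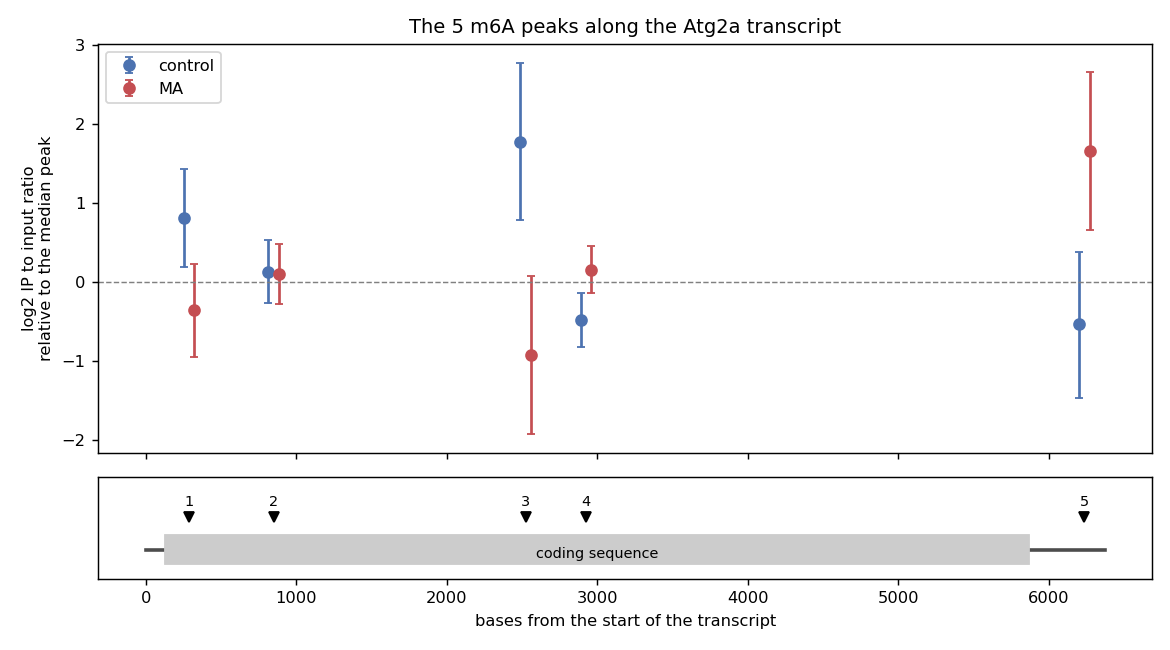
IP to input ratio of the 5 Atg2a peaks along the transcript on the log2 scale, relative to the median peak of the same group (blue, control; red, MA; bars, 95% interval for counting error only). Distance runs in bases from the transcript start and the grey block is the coding sequence. MA lies below control at peaks 1 and 3, meets it at peak 2 and lies above it at peaks 4 and 5.

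TMEM41B, a scramblase of the endoplasmic reticulum that works with VMP1 in autophagosome growth, had 1 peak, 448 bases after the stop codon. It held 46 input and 36 IP reads in control, and 27 and 80 in MA. The ratio was 2.03-fold higher relative to the median peak, a change of 1.02 [0.14, 1.90], with IP reads at 0.68 [0.12, 1.24]. Its input stood at -0.31, within the threshold. Although 15.9% of the 50-base stretches of Tmem41b also occur in the pseudogene Gm6223, none of those centred inside a peak was shared, here or at the other 16 peaks. Atg2b, Atg9a, Vmp1 and the 4 WIPI genes, whose proteins bind phosphatidylinositol 3-phosphate, had no listed peak.

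In the conjugation step 3 of 15 genes carried 1 peak each: 0 were higher, 1 lower and 2 within the threshold. ATG4B is the protease that primes Atg8 proteins and takes them off membranes again. Its peak, 1119 bases after the stop codon, held 21 input and 32 IP reads in control, and 18 and 30 in MA, and was 1.69-fold lower at -0.75 [-1.90, 0.39], an interval that includes 0. ATG16L1 places the ATG12-ATG5 conjugate at the membrane. Its peak, in CDS over exons 7 to 9 of 19, held 105, 114, 102 and 142 reads, with a change of -0.52 [-1.05, 0.01].

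Map1lc3b encodes LC3B, the Atg8 protein most used to follow autophagosomes. Its peak was by far the deepest of the 17, with 1342 input and 1253 IP reads in control, and 1208 and 1455 in MA over 25 exonic bases. The change was -0.51 [-0.67, -0.36], a 1.43-fold lower ratio that did not reach the threshold although its interval excluded 0. Relative to the median peaks, the IP reads stood at -0.25 [-0.35, -0.14] and the input reads at 0.29 [0.18, 0.40], so both sides contributed. Depth sets how narrow these intervals are: that of Atg2a peak 3, with 10 to 34 reads in a group, is far wider.

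Input reads in the same peaks give an expression measure for that stretch alone. Relative to the median peak, whose raw input was 0.735 of control in MA, 3 of the 16 tested peaks were more than 1.5-fold higher in MA (18.8%, against 11.1% of all tested peaks) and 1 was lower (6.25%, against 11.4%). The higher ones were Atg14 peak 2 and Atg2a peaks 1 and 3, all among the peaks with a lower IP to input ratio, and the lower one was C9orf72 peak 1, whose ratio changed most upward. Input is the denominator of the ratio, so these are 2 readings of the same reads. The median input change was 0.21, and 13 of the 16 peaks lay above the median peak. Intervals lay above 0 for 4 peaks (Atg14 peak 2, Atg2a peak 1, Atg16l1 and Map1lc3b) and below 0 for C9orf72 peak 1. The IP reads are the numerator of the same ratio and thus no separate reading either: all 3 peaks with a higher ratio had IP intervals above 0, and 3 of the 6 with a lower ratio (Smcr8, Atg14 peak 1 and Atg2a peak 3) had IP intervals below 0. By position, the median change of the ratio was -0.51 over the 11 tested CDS peaks and -0.07 over the 5 tested 3′UTR peaks, against -0.02 and 0.04 over all tested peaks of those regions.

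Base means, 1 per gene for both treatments together, describe how strongly each gene was expressed but not its change. Divided by the length of the longest coding transcript, the 48 genes ran from 70.1 to 9631 normalized reads per 1000 bases, a 137-fold range. Their median was 559, against 195 over the 15739 genes with a base mean above 0 and a known length, and 42 of the 48 stood above that median gene. Among the 12184 genes with a base mean of at least 10, 33 of the 48 stood above the median. As each level is 1 pooled value, neighbours in this order could not be compared against a spread.

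Cargo receptors were the most abundant group, with a median of 2397 per 1000 bases, and 4 of the 5 stood in the top 10% of genes. Calcoco1 did so only just, at percentile 90.5, and was outside the top 10% under each of the other 3 settings tried, which left 3 of 5. Sqstm1, encoding the ubiquitin-binding receptor p62, was the highest of the 48 at 9631, and Tax1bp1 followed at 6211. Nbr1, a partner of p62 in cargo clustering, stood at 2397 and Calcoco1, a receptor for endoplasmic reticulum and Golgi, at 1805. Optn, a receptor in selective autophagy of mitochondria and bacteria, was the lowest of the receptors at 934, still at percentile 80.5 of all genes.

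**Figure D4:**
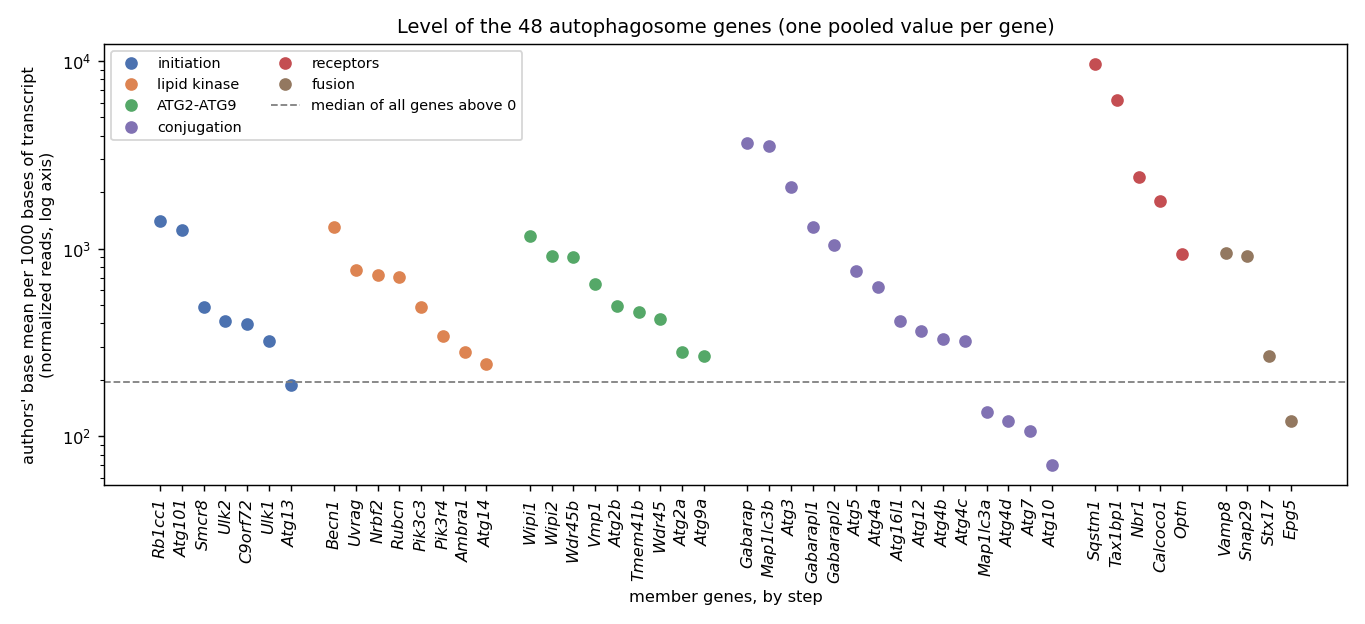
Level of each of the 48 genes, as the base mean of the authors' table per 1000 bases of the longest coding transcript, on a log axis and grouped by step. Each point is 1 value pooled over libraries, so no error can be drawn; the dashed line is the median of all genes above 0 (195). The 5 receptors lie from 934 to 9631, whereas the conjugation genes spread from 70.1 to 3663.

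Conjugation genes spread the most, 52.2-fold, with a median of 412 per 1000 bases. Within the Atg8 family Gabarap stood at 3663, Map1lc3b at 3511, Gabarapl1 at 1311 and Gabarapl2 at 1040, whereas Map1lc3a stood at 135. The enzymes that carry these proteins were uneven: Atg3, the E2 enzyme for Atg8 proteins, stood at 2131, Atg7, the E1 enzyme, at 107, and Atg10, the E2 enzyme for ATG12, at 70.1, the lowest of all 48. For Gabarapl2, 17% of the 50-base stretches occur in Gm3724 and other genes, so its level may hold or lack reads of those copies.

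In the initiation step, with a median of 413, Rb1cc1, the scaffold FIP200, was highest at 1396 per 1000 bases and Atg13, the adaptor that binds it and the ULK kinases, lowest at 188. In the lipid kinase step, with a median of 598, Becn1, the regulatory subunit Beclin 1, was highest at 1306 and Atg14 lowest at 242. In the ATG2-ATG9 step, with a median of 493, Wipi1 was highest at 1171 and Atg9a, the scramblase carried by small vesicles, lowest at 268. In the fusion step, with a median of 589, the SNARE gene Vamp8 was highest at 943 and Epg5, a tether between autophagosome and lysosome, lowest at 121. Levels of Nrbf2, Atg4a, Wdr45 and Atg9a are uncertain, since 69.4%, 63.6%, 46.2% and 42.3% of their 50-base stretches also occur in other genes, among them Gm6740 for Nrbf2 and Atg4a-ps for Atg4a.

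Other genes of the pathway, a list of 44 regulators, lysosomal genes, tethers and receptors outside the 48, gave 10 tested peaks on 8 genes. Of these, 7 were more than 1.5-fold higher in MA (against 26.5% of all tested peaks), 0 were lower (against 24.9%) and 3 lay within the threshold, with a median change of 0.73. The higher ones lay on Tsc1 and Mtor, a brake and the kinase of the nutrient-sensing pathway that restrains autophagy, on Tecpr1, Vps41 and Wdfy3 (both of its peaks), whose proteins act in tethering or cargo handling, and on the lysosomal protease gene Ctsb. Tsc1 held 71 input and 40 IP reads in control, and 30 and 129 in MA, a change of 2.03 [1.23, 2.82]. Intervals also lay above 0 for Mtor, at 1.38 [0.57, 2.20], and for Tecpr1, at 1.49 [0.41, 2.58]. Those of the other higher peaks included 0. These were Ctsb at 0.70 [-0.45, 1.86], Vps41 at 0.75 [-0.29, 1.79] and Wdfy3 at 0.71 [-0.27, 1.69] and 0.77 [-0.11, 1.66]. Another, deeper Ctsb peak lay within the threshold, at 0.09 [-0.76, 0.93]. The paper itself reports raised m6A on Tsc1, Ctsb and Atg2a, and altered m6A and expression of C9orf72. Of these, Atg2a and C9orf72 belong to the 48. The list of other genes was chosen with earlier results of these data known. The shares above are therefore a description, and the difference between these genes and the 48 was not tested.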

How the data were processed

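The members and lists were chosen with earlier results of these data known. Per the study's methods, fastp, HISAT2 (mm10), StringTie and DESeq2 served for trimming, alignment, quantification and the comparison of groups. Base means, as deposited, are a signal normalized by size factors (mean count per library after scaling), and the libraries that enter them are not stated. Peaks were called by the authors in exomePeak2, the table gives 1 list of them for both groups, and the read counts deposited by the authors are pooled within each group of 3 libraries. Tool versions are not given in the sources used here. Both tables also hold the authors' own comparisons (fold changes, standard errors, test statistics, p-values and modification levels), none of which was used.

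Here, genes and peaks were matched by gene name. Peaks were placed on GENCODE M21 transcripts. Starts in the table were taken to count from 0. With this, 97.2% of the placed peaks have an exonic length that is a multiple of 25 bases, against 0.774% from 1. Among transcripts holding as many ends of a peak, one with such a length was preferred, then a coding and a longer one. The choice of transcript can thus raise the 97.2%, which is no separate check. Map1lc3b was placed on a transcript of 766 bases. For each peak, 0.5 was added to each count, the log2 IP to input ratio of MA was set against that of control, and the median over the 2467 peaks with at least 10 reads in each group was subtracted. Intervals at 95% come from the sum of inverse counts, and cover counting error only. In simulated counts for 2643 peaks, 200 were changed 4-fold. Over the 2384 of these that were tested, the intervals held the true change for 95.1% of unchanged peaks and 95.6% of changed ones. Other sizes of change were not simulated. No replicate spread was known, so this coverage says nothing about that spread. Depth per library is unknown. As no single-library column was given, the planned count test could not be run. Named genes were all members with a peak, the highest and lowest gene of each step, the Atg8 family and the receptors. Other scalings, pseudocounts, read minimums, thresholds, lengths and motifs were tried. Analyses ran in Python 3.11.15, with pandas 2.3.3, numpy 2.4.6, matplotlib 3.10.9 and scipy 1.17.1.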

Additional observations from a re-analysis of the deposited data

How the results depend on the processing

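No paired analysis was possible because the read counts are pooled over the replicates, and leaving out 1 replicate was not run for the same reason. Scaling decided the most. Without it, 8 member peaks were higher and 1 lower (63.4% and 7.46% of all tested peaks), the median change was 0.49, and Atg4b turned to 0.13; for input, 3 of 16 were lower (36.6% of all tested peaks) and the median was -0.24 (-0.44 over all). With at least 50 reads in each group, 7 member peaks were left, 1 higher and 2 lower (18.8% and 16.6% of all). At a 1.2-fold threshold 3 of 16 were higher and 9 lower (39% and 37.8% of all). At a 2-fold threshold 2 of 16 were higher and 2 lower (14.6% and 14% of all). GGACT was in 0 peaks. Levels depended on the reference genes and length: 33 to 45 members stood above the median gene and 3 or 4 receptors in the top 10%. Scaling by totals over all peaks, centring on peaks with at least 100 reads, and pseudocounts of 1 or 5 left the same 3 peaks higher and the same 6 lower. Differences between peaks of 1 gene do not depend on scaling.

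Depth limits the smaller peaks: C9orf72 peak 1, Atg2a peak 3 and Atg2a peak 5 rest on 12, 10 and 9 reads in their weakest group. Replicate spread is unknown throughout, and no interval holds it. Peaks absent from the deposited list were not measured.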
